A study of Homo sapiens with 12 samples.

Results

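The genes described here make cholesterol and fatty acids or control how much of them is made. They are 33 genes chosen by name, from the proteins that switch the pathway on and off to the enzymes of each step. All 33 were found among the 38021 gene names of the deposited table of raw counts, and all 33 passed the filter on low counts that left 16838 genes for testing.

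The counts come from 12 RNA-seq libraries of clear cell renal cell carcinoma (ccRCC) cells, in 4 groups of 3 replicates. 786O is a ccRCC line without functional VHL, the part of a ubiquitin ligase that marks hypoxia-inducible factors (HIF) for destruction, and WT8 is a derivative of 786O in which wildtype VHL is expressed. Lentivirus brought into either line a control hairpin (shControl) or a hairpin against BMAL1 (shBMAL1), the partner of CLOCK in the circadian clock. The 4 groups are therefore 786O shControl, 786O shBMAL1, WT8 shControl and WT8 shBMAL1. All 4 went through infection and puromycin selection and were grown in medium with fetal bovine serum, which carries cholesterol and fatty acids. WT8 came from another laboratory, which also provided a 786O line, and 786O was purchased as well. Which 786O gave these libraries, and whether WT8 is a single clone, is not stated in the sources used here. These libraries hold 1 hairpin against BMAL1. The labels and the study call the 3 replicates of a group biological, without saying how they were kept apart, and the p-values measure the spread between these samples.

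Cells sense their own sterol level in the membrane of the endoplasmic reticulum. When sterols run low, SCAP carries the SREBP transcription factors (encoded by SREBF1 and SREBF2) to the Golgi, where proteases free the part that enters the nucleus and switches on the genes of cholesterol and fatty acid synthesis. When sterols are plentiful, the INSIG proteins hold SCAP back. Clear cell tumors are known for cytoplasm filled with cholesterol esters and neutral fat, which gives them their clear look.

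The labels were checked first. Levels are given as CPM, the count of a gene scaled to a common library size by TMM normalization, as mean ± SD of 3 replicates. ARNTL, the symbol under which the table lists BMAL1, was at 12.1 ± 1.37 CPM in 786O shControl and 3.94 ± 0.2197 CPM in 786O shBMAL1 (log2 change -1.62, SE 0.13, adjusted p = 4.90e-13). In WT8 it was at 9.24 ± 0.966 CPM with shControl and 1.66 ± 0.236 CPM with shBMAL1 (log2 change -2.48, SE 0.14, adjusted p = 2.66e-17). VHL transcript was at 18.8 ± 1.58 CPM in 786O shControl and 981 ± 56.5 CPM in WT8 shControl. In WT8 shBMAL1 it was 647 ± 15.1 CPM, lower than in WT8 shControl (log2 change -0.60, SE 0.05, adjusted p = 6.67e-13), so the WT8 groups differed in VHL transcript as well as in BMAL1. The part of that difference in the results below was not tested. All 8 markers of renal epithelial lines were detected in every group, with a summed level of 6401 ± 207 CPM in 786O shControl, 6449 ± 54.3 CPM in 786O shBMAL1, 4563 ± 12.8 CPM in WT8 shControl and 3724 ± 75.1 CPM in WT8 shBMAL1. Between the lines, where 39.3% of all genes tested were called higher and 40.2% lower, 3 of the 8 were higher and 5 lower in WT8 shControl. The kidney lineage factor PAX8 was at one end (log2 change 2.09) and LHX1, a factor of the developing kidney, at the other (-2.32). All 7 markers of blood, endothelial and liver cells stayed below 1 CPM in every library, and of these the T cell marker CD3E had 0 counts in all 12 and the leukocyte marker PTPRC at most 1. Totals ran from 33182005 to 36477484 counts per library, and replicates correlated with r from 0.991 to 0.992 across genes on log2 CPM.

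A further difference between the groups bears on the comparisons that use WT8 shControl. A list of 15 proliferation genes had a summed level of 3260.4 ± 50.9 CPM in 786O shControl, 3369 ± 67.5 CPM in 786O shBMAL1, 686 ± 15.9 CPM in WT8 shControl and 3132 ± 16.99 CPM in WT8 shBMAL1. All 15 were called lower in WT8 shControl than in 786O shControl (median log2 change -2.18), where 40.2% of all genes tested were. With shBMAL1 in WT8 all 15 were called higher (median 2.27), where 32.9% of all genes were. The replication helicase subunit MCM5 changed most of the 15, by -3.49 between the lines and by 3.25 with shBMAL1 in WT8. In 786O, where 24.5% of all genes were called higher and 24.4% lower, shBMAL1 raised 5 and lowered 2 of the 15, with a median of -0.03. The part of this difference in the results on sterol and fatty acid genes was not tested. In bulk libraries like these, fewer cells of a kind and less RNA per cell cannot be told apart.

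In 786O, the sterol and fatty acid genes were lower with shBMAL1. Of the 33 genes, 25 fell, 1 rose (ELOVL5) and 7 did not pass the test at an adjusted p of 0.1 by edgeR. Over all 16838 genes tested, 48.9% were called in this comparison, 24.5% higher and 24.4% lower. The log2 changes of the 33 genes ran from -0.98 to 0.14 with a median of -0.37, where the median over all genes was 0.00. The summed level of the 33 genes was 6477 ± 134 CPM in 786O shControl and 4912 ± 74.5 CPM in 786O shBMAL1.

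In WT8, the same hairpin went with higher levels of most of the sterol genes. Of the 33 genes, 20 rose and 10 fell, and NSDHL, ACACA and FASN did not pass the test. Over all genes tested, 69.8% were called in this comparison, 32.9% higher and 36.9% lower, so the count of 30 called genes is to be read against a high background. The log2 changes ran from -0.81 to 1.60, with a median of 0.19 against -0.04 over all genes. The summed level of the 33 genes was 4908 ± 25.9 CPM in WT8 shControl and 5288 ± 82.8 CPM in WT8 shBMAL1.

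The comparisons in 786O and WT8 share no library, so their calls can be set side by side. Called lower in 786O and higher in WT8 were 15 of the 33 genes, a pattern found for 5.76% of all genes tested. They are the sterol feedback and transport genes INSIG1 and STARD4, the sterol synthesis genes ACAT2, HMGCS1, MVK, MVD, IDI1, FDPS, FDFT1, SQLE, LSS, HSD17B7, EBP and DHCR7, and the fatty acid desaturase FADS1. Called lower in both lines were 9 of the 33, against 13.6% of all genes tested. They are SREBF1, SCAP, INSIG2, AACS, ACLY, ACSS2, CYP51A1, SCD and FADS2. ELOVL5 was the 1 gene called higher in both lines, and 0 genes were called higher in 786O and lower in WT8. The shares of all genes tested with these patterns are not given here, so neither count is read as a result about the 33 genes. The calls of STARD4 in 786O, LSS and CYP51A1 in WT8 and SCAP in both lines were lost when single libraries were left out, as given with each gene. The other 8 (SREBF2, ME1, PMVK, TM7SF2, NSDHL, ACACA, FASN and ELOVL6) were called in 1 line or in neither.

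**Figure D1:**
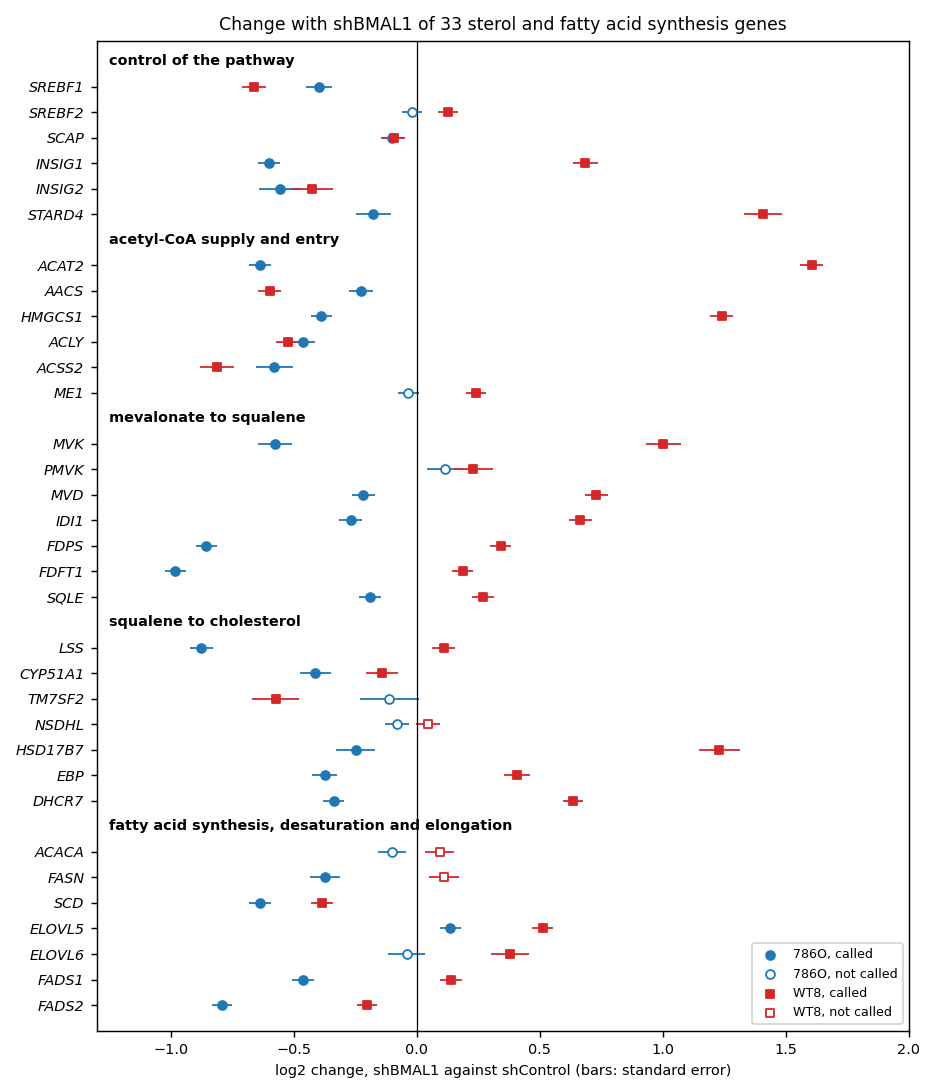
Log2 change with shBMAL1 (x axis) for each of the 33 genes, grouped by role (y axis), in 786O (circles) and WT8 (squares). Bars are standard errors, and filled symbols passed the test at an adjusted p of 0.1. Most sterol synthesis genes have a circle left of 0 and a square right of 0, while SREBF1, INSIG2, ACLY, ACSS2, SCD and FADS2 have both symbols left of 0.

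The test of the difference itself, the interaction, compares the change with shBMAL1 in WT8 with the change in 786O. It was called for 28 of the 33 genes, 24 times with a positive sign (a change further up, or less far down, in WT8) and 4 times with a negative sign (SREBF1, AACS, ACSS2 and TM7SF2). Over all genes tested, 56.0% were called, 27.4% positive and 28.5% negative. The median over the 33 genes was 0.46, against -0.03 over all genes. It was not called for SCAP, INSIG2, ACLY, PMVK and NSDHL.

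Between the lines, WT8 shControl had lower levels than 786O shControl for 24 of the 33 genes and higher levels for 7 (SREBF1, AACS, ACSS2, ME1, TM7SF2, NSDHL and FASN). Over all genes tested, 79.5% were called between the lines, 39.3% higher and 40.2% lower. The log2 changes ran from -2.72 to 1.97 with a median of -0.47 (0.00 over all genes), and SREBF2 and SCAP did not pass the test. This comparison shares the 786O shControl libraries with the comparison in 786O and the WT8 shControl libraries with the comparison in WT8, so its values stand beside theirs and are not independent of them.

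The order of the 4 groups follows from these values. Mean CPM was highest in 786O shControl for 18 genes, in WT8 shBMAL1 for 9, in WT8 shControl for 4 and in 786O shBMAL1 for 2. It was lowest in WT8 shControl for 15 genes, in 786O shBMAL1 for 13 and in WT8 shBMAL1 for 5. These ranks use means alone, whatever the tests gave, and no share over all genes is given beside them. SCAP, with a ratio of highest to lowest mean of 1.08, counts the same as INSIG1 with 6.59.

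**Figure D2:**
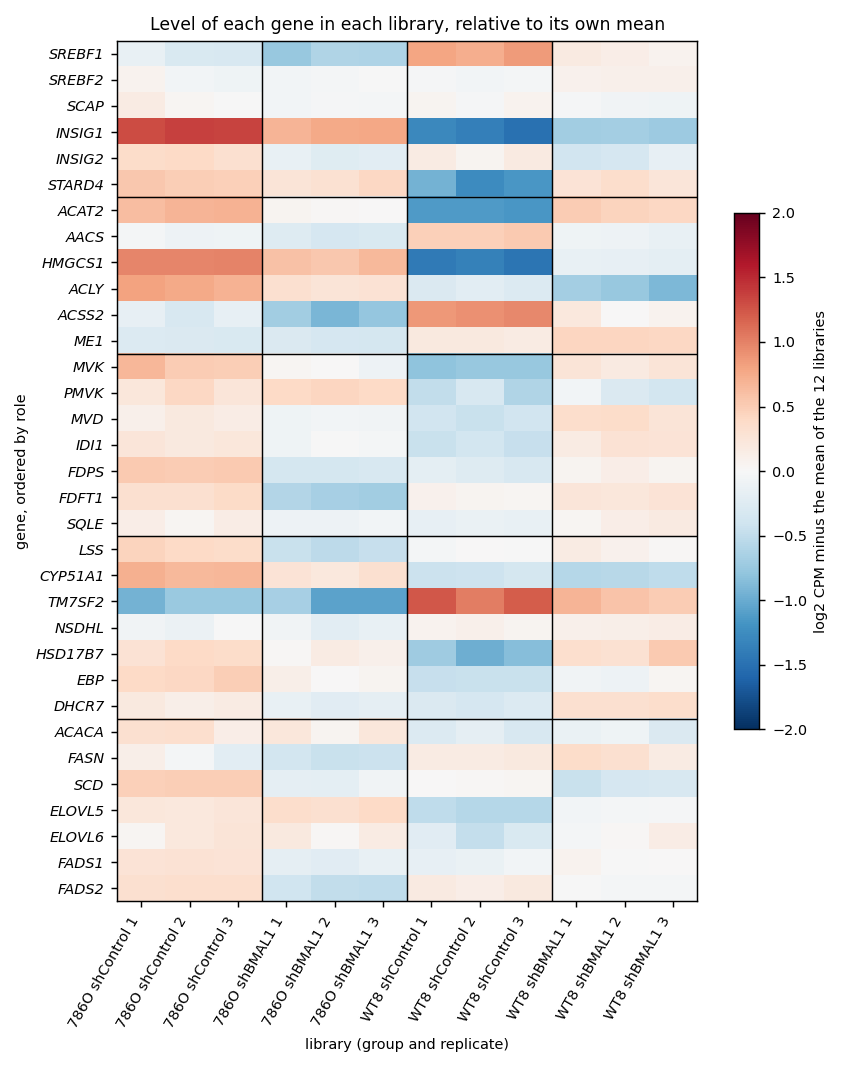
Level of the 33 genes (rows, ordered by role, with lines between the roles) in the 12 libraries (columns), as log2 CPM minus the gene's mean over the 12 libraries. INSIG1 and HMGCS1 are darkest red in 786O shControl and darkest blue in WT8 shControl, and SREBF1, ACSS2 and TM7SF2 are reddest in WT8 shControl.

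The sequence just before the start of each gene was read from RefSeq (GRCh38.p14), for the 29 of the 33 genes that had a window in the table used. Windows of 250 bases before to 50 bases after the start were searched on both strands for 4 short motifs. These were the E-box CACGTG, to which BMAL1 and CLOCK bind, the core ACGTG of hypoxia response elements, which lies inside every E-box, TCACNCCAC, a core of the sterol response element of SREBP, and CCAAT, the box of the factor NF-Y, which often works beside SREBP. The 250 bases before the start are shown for 5 genes that the results turn on. INSIG1 had the largest difference between the lines, HMGCS1 and MVK were lower in 786O and higher in WT8, SREBF2 encodes the sterol regulator itself, and ACSS2 was lower in both lines. Sequences run 5′ to 3′ on the strand of the gene, and capitals mark CACGTG, TCACNCCAC and CCAAT on either strand (CCAAT on the other strand reads ATTGG).
INSIG1, chr7:155297628-155297877, plus strand: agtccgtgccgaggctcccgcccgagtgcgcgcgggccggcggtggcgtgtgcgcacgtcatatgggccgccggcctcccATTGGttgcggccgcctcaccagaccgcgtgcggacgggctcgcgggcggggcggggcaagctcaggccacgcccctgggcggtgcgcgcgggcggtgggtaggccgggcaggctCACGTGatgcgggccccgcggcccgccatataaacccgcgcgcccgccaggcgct
HMGCS1, chr5:43313413-43313662, minus strand: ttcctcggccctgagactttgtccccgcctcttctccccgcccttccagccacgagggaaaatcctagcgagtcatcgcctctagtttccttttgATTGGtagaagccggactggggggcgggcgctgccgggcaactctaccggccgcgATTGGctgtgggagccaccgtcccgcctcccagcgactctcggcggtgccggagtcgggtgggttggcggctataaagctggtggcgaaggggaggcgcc
MVK, chr12:109573544-109573793, plus strand: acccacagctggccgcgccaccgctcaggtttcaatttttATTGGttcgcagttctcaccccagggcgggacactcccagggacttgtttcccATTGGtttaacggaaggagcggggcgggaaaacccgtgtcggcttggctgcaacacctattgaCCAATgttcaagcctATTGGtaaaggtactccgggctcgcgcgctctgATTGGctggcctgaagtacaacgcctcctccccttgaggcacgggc
SREBF2, chr22:41832855-41833104, plus strand: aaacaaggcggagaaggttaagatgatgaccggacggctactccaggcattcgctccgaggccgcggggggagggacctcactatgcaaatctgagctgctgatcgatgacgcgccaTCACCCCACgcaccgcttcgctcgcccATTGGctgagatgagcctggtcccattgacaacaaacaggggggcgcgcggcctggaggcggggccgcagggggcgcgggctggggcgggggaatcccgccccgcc
ACSS2, chr20:34874739-34874988, plus strand: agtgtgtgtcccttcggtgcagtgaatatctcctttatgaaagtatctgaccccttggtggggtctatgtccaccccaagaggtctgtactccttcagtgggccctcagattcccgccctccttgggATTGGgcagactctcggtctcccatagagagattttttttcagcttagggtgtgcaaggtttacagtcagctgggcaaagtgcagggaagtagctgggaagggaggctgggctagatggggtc

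INSIG1 had an E-box whose first base lay at -55 from the start and a CCAAT box at -170. HMGCS1 had CCAAT boxes at -155 and -100, and MVK had 5, from -210 to -46. SREBF2 had the sterol response core at -133 and a CCAAT box at -106, and ACSS2 had a CCAAT box at -123. Over the 29 windows, CACGTG was found in 4 (SCAP, INSIG1, LSS and ELOVL5), where 7.26% of all 35116 RefSeq windows of this length held it. ACGTG was found in 7, against 21.4% of all windows, and TCACNCCAC in 1 (SREBF2), against 1.13%. CCAAT was found in 17 of the 29 (58.6%), against 34.6% of all windows. Of the 15 genes that were lower in 786O and higher in WT8, 12 had a window and 10 of these held CCAAT. Of the 9 genes lower in both lines, all had a window and 3 held it (ACLY, ACSS2 and SCD). ELOVL5, higher in both lines, held it as well. Of the other 8 genes, 7 had a window and 3 held it (SREBF2, TM7SF2 and NSDHL). A match to these letters is a description of the sequence and does not show binding. Only exact matches in these windows were searched, so a missing match does not show that an element is absent.

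**Figure D3:**
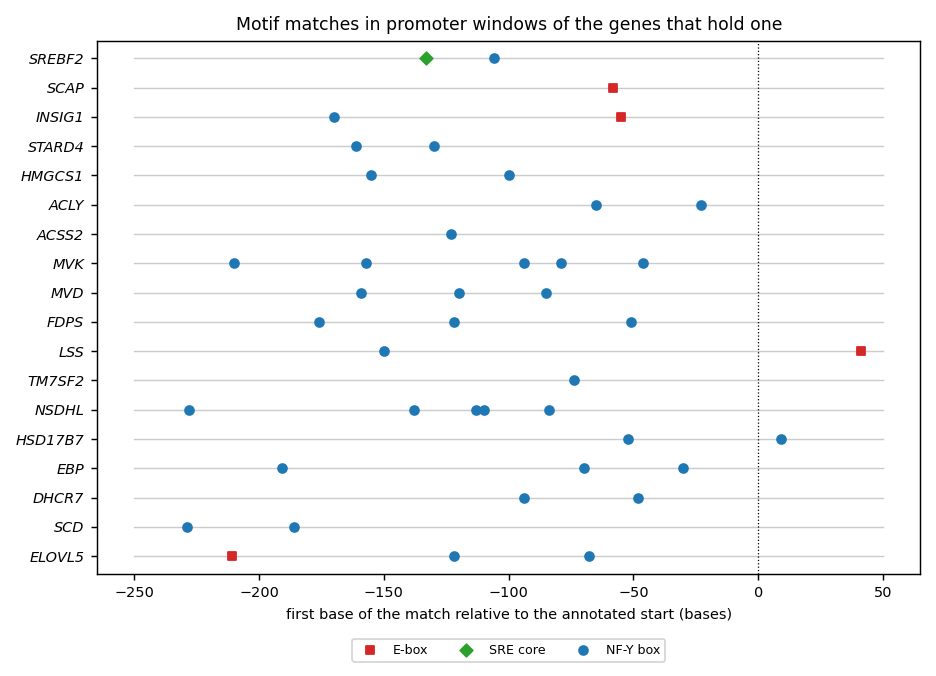
Position of the first base of each motif match (x axis, bases from the annotated start) in the windows of the 18 genes (y axis) that held an E-box, a sterol response core or an NF-Y box. NF-Y boxes make up most of the matches, MVK and NSDHL have 5 each, and SREBF2 alone has an exact match to the sterol response core.

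The genes that control the pathway did not move as one. SREBF2, which encodes the SREBP that acts mainly on cholesterol synthesis, had 521, 478 and 469 CPM in the 3 libraries of 786O shControl and 476, 480.4 and 492 CPM in 786O shBMAL1. It had 489.9, 479 and 485 CPM in WT8 shControl and 525, 529.8 and 532 CPM in WT8 shBMAL1. The first 3 groups overlapped and WT8 shBMAL1 lay just above WT8 shControl. SREBF2 did not pass the test in 786O (log2 change -0.02, SE 0.04, adjusted p = 0.752) and rose slightly in WT8 (log2 change 0.13, SE 0.04, adjusted p = 0.00793), and its interaction (0.15, adjusted p = 0.0378) was lost without 786O shControl replicate 1 (0.11, adjusted p = 0.146). Between the lines it did not pass the test (log2 change -0.01, adjusted p = 0.765), but under scaling by library totals it was called higher in WT8 shControl (0.10, adjusted p = 0.0212).

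SREBF1 encodes the SREBP forms that act mainly on fatty acid synthesis. It had 114, 103 and 102 CPM in 786O shControl and 75.7, 84.2 and 82.8 CPM in 786O shBMAL1. It had 221, 211 and 229 CPM in WT8 shControl and 144, 139 and 134 CPM in WT8 shBMAL1, and no groups of these overlapped. SREBF1 fell with shBMAL1 in 786O (log2 change -0.40, SE 0.05, adjusted p = 8.21e-08) and more so in WT8 (log2 change -0.66, SE 0.05, adjusted p = 5.09e-14), with an interaction of -0.27 (SE 0.07, adjusted p = 0.00236). It was 2.07-fold higher in WT8 shControl than in 786O shControl, so its direction between the lines was opposite to that of most sterol synthesis genes.

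INSIG1, the retention protein whose own gene is an SREBP target, showed the widest spread between the lines of the 33 genes. It had 278, 288 and 285 CPM in 786O shControl and 180.2, 189 and 192 CPM in 786O shBMAL1. It had 45.7, 43.5 and 40.02 CPM in WT8 shControl and 69.5, 70.2 and 67.9 CPM in WT8 shBMAL1. The 4 groups did not overlap, and both 786O groups were above both WT8 groups. INSIG1 was 6.59-fold lower in WT8 shControl than in 786O shControl (log2 change -2.72, SE 0.05, adjusted p = 1.17e-32). With shBMAL1 it fell in 786O (log2 change -0.60, SE 0.05, adjusted p = 2.75e-13) and rose in WT8 (log2 change 0.68, SE 0.05, adjusted p = 1.75e-14).

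INSIG2, a close relative with the same retention role, behaved otherwise. It had 18.8, 19.3 and 18.3 CPM in 786O shControl and 13.2, 12.4 and 12.7 CPM in 786O shBMAL1, against 16.5, 15.2 and 16.7 CPM and 11.2, 11.7 and 13.1 CPM in the WT8 groups. It fell with shBMAL1 in both lines, by 0.56 in 786O (SE 0.09, adjusted p = 1.60e-06) and by 0.43 in WT8 (SE 0.09, adjusted p = 5.23e-05) on the log2 scale. Its interaction was 0.13 (SE 0.12, adjusted p = 0.387) and did not pass the test. The lower level in WT8 shControl than in 786O shControl (-0.22, adjusted p = 0.0175) was lost when libraries were scaled by their totals (-0.10, adjusted p = 0.267).

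SCAP, the escort of SREBP, was near the same level throughout, with group means from 134 to 146 CPM. Its log2 changes with shBMAL1 of -0.10 in 786O (adjusted p = 0.0826) and -0.09 in WT8 (adjusted p = 0.0765) passed the threshold but were lost under 9 and 8 of the alternatives. One of these was the fit without 786O shControl replicate 1, where the change in 786O was -0.05 (adjusted p = 0.432). STARD4, which moves cholesterol between membranes, had 41.5, 40.5 and 39.8 CPM in 786O shControl and 34.3, 35.3 and 38.1 CPM in 786O shBMAL1. In WT8 it had 14.95, 11.95 and 12.8 CPM with shControl and 34.7, 36.7 and 33.8 CPM with shBMAL1. WT8 shControl alone stood far below the rest, and the rise with shBMAL1 in WT8 was 2.65-fold (log2 change 1.41, SE 0.08, adjusted p = 4.72e-18). The small fall in 786O (log2 change -0.18, SE 0.07, adjusted p = 0.04397) was lost without 786O shControl replicate 1 (-0.16, adjusted p = 0.112) or without 786O shBMAL1 replicate 1 (-0.15, adjusted p = 0.149) or 2 (-0.17, adjusted p = 0.106).

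**Figure D4:**
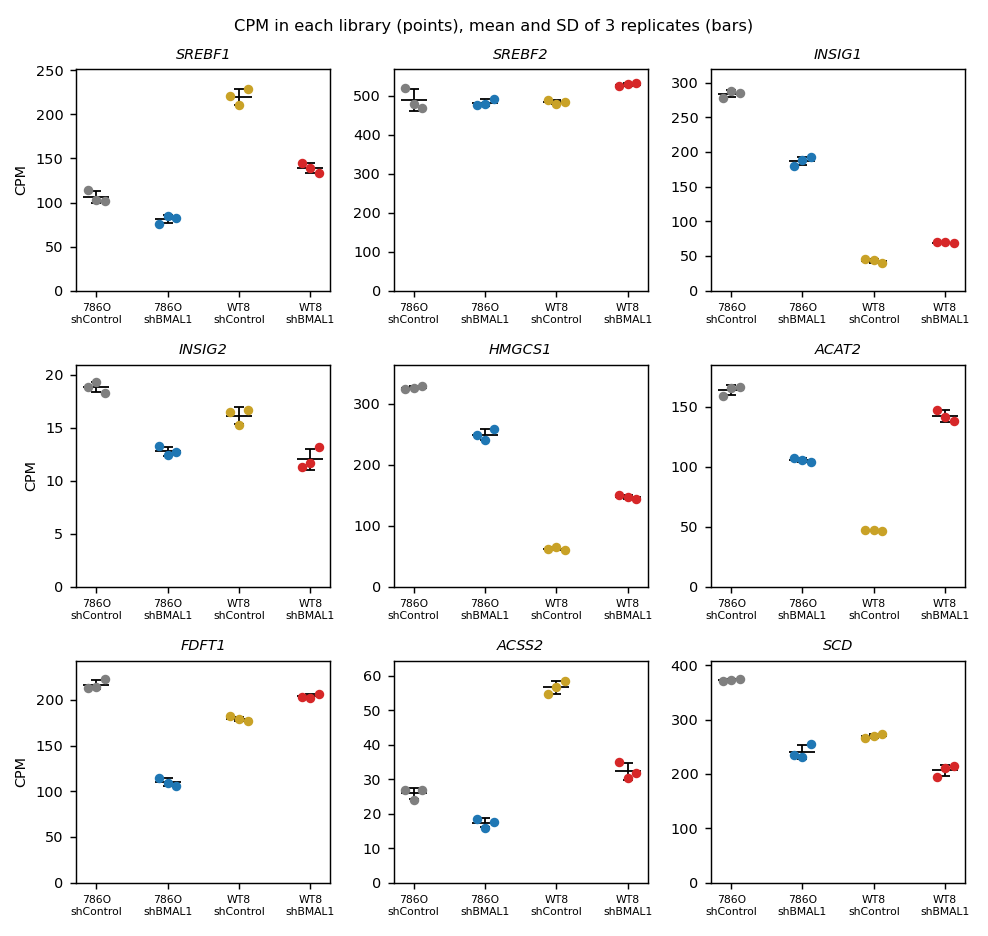
CPM (y axis, from 0) of 9 genes in each library of the 4 groups (x axis), with points for libraries and black bars for the mean and SD of 3 replicates. HMGCS1, ACAT2 and INSIG1 are lowest in WT8 shControl, FDFT1 is lowest in 786O shBMAL1, SREBF1 and ACSS2 are highest in WT8 shControl, and SREBF2 is at a similar level in all groups.

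Acetyl-CoA is the building block of both pathways. The 2 genes that commit it to sterols, ACAT2 (cytosolic acetoacetyl-CoA thiolase) and HMGCS1 (HMG-CoA synthase), had the largest interactions of the 33 genes. ACAT2 had 159, 166 and 167 CPM in 786O shControl, 107, 105 and 104 CPM in 786O shBMAL1, 47.03, 47.1 and 46.1 CPM in WT8 shControl and 148, 141 and 138 CPM in WT8 shBMAL1. The 4 groups did not overlap, and WT8 shControl was the lowest. ACAT2 fell 1.55-fold in 786O (log2 change -0.64, SE 0.04, adjusted p = 3.93e-14) and rose 3.04-fold in WT8 (log2 change 1.60, SE 0.05, adjusted p = 3.75e-26), with an interaction of 2.24 (SE 0.06, adjusted p = 9.89e-26). The annotated exons of ACAT2 overlap those of TCP1 and SOD2 on the opposite strand, and whether strand was used in counting is not stated, so its counts are uncertain to that extent. The log2 changes of TCP1 were 0.20 in 786O and 0.44 in WT8, and those of SOD2 were -0.69 and -2.40.

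HMGCS1 had 323, 326 and 329 CPM in 786O shControl and 249, 241 and 258 CPM in 786O shBMAL1. It had 62.03, 64.97 and 59.9 CPM in WT8 shControl and 149.8, 147 and 144 CPM in WT8 shBMAL1, again with no overlap between groups. The log2 change was -0.39 in 786O (SE 0.04, adjusted p = 2.06e-09) and 1.24 in WT8 (SE 0.05, adjusted p = 3.16e-23), and the level in WT8 shControl was 5.24-fold below that in 786O shControl. With shBMAL1, WT8 reached 147 CPM, still below both 786O groups.

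The genes that supply acetyl-CoA moved another way. ACSS2, which makes acetyl-CoA from acetate, had 26.8, 24.05 and 26.8 CPM in 786O shControl and 18.5, 15.9 and 17.5 CPM in 786O shBMAL1, against 54.6, 56.7 and 58.3 CPM and 34.9, 30.2 and 31.6 CPM in the WT8 groups. It fell in 786O (log2 change -0.58, SE 0.08, adjusted p = 6.65e-08) and in WT8 (log2 change -0.81, SE 0.07, adjusted p = 1.27e-12), and it was 2.19-fold higher in WT8 shControl than in 786O shControl. Its interaction of -0.23 (adjusted p = 0.05896) was lost when any of 6 libraries was left out, with values from -0.17 to -0.22. ACLY, which makes acetyl-CoA from citrate, fell in both lines (-0.46 and -0.53), and the difference did not pass the test (interaction -0.06, SE 0.07, adjusted p = 0.444). Unlike ACSS2 it was lower in WT8 shControl (420.0 CPM) than in 786O shControl (845 CPM). AACS, which activates the ketone body acetoacetate, also fell in both lines (-0.23 and -0.60) and was higher in WT8 shControl (0.56). ME1, a source of NADPH, did not pass the test in 786O (-0.03, adjusted p = 0.567) and rose by 0.24 in WT8.

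The steps from mevalonate to squalene, with the epoxidase that follows, moved together in WT8 and between the lines. In WT8, 7 of 7 genes rose with shBMAL1 (0.19 to 1.00, median 0.34), and between the lines 7 of 7 were lower in WT8 shControl (median -0.65). The shares of all genes tested were 32.9% higher in WT8, 40.2% lower between the lines and 24.4% lower in 786O. In 786O, 6 of 7 fell, and PMVK (phosphomevalonate kinase) did not pass the test (log2 change 0.11, SE 0.07, adjusted p = 0.229). Their summed level was 1108 ± 14.2 CPM in 786O shControl and 796 ± 2.29 CPM in 786O shBMAL1. In WT8 it was 784 ± 9.6998 CPM with shControl and 1022 ± 17.8 CPM with shBMAL1, so 786O shBMAL1 and WT8 shControl had nearly the same sum.

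FDFT1, squalene synthase, the first enzyme that serves sterols alone, had the largest fall of the 33 genes in 786O. It had 213, 214 and 223 CPM in 786O shControl and 114, 109 and 106 CPM in 786O shBMAL1, against 182, 179 and 177 CPM and 203, 202 and 207 CPM in the WT8 groups. The fall in 786O was 1.97-fold (log2 change -0.98, SE 0.04, adjusted p = 9.33e-20), and the rise in WT8 was 1.14-fold (log2 change 0.19, SE 0.04, adjusted p = 2.55e-04). FDPS, farnesyl diphosphate synthase, the step before, had a like profile, with -0.86 in 786O (SE 0.04) and 0.34 in WT8 (SE 0.04).

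MVK, mevalonate kinase, rose most of this group in WT8. It had 45.5, 40.6 and 40.4 CPM in 786O shControl, 29.3, 28.9 and 26.5 CPM in 786O shBMAL1, 16.4, 16.9 and 16.97 CPM in WT8 shControl and 34.1, 32.5 and 34.1 CPM in WT8 shBMAL1. The 4 groups did not overlap, and WT8 shControl was the lowest. It fell in 786O (log2 change -0.58, SE 0.07, adjusted p = 1.04e-08) and rose in WT8 (log2 change 1.00, SE 0.07, adjusted p = 9.38e-15). MMAB overlaps MVK on the opposite strand and had log2 changes of -0.47 in 786O and 0.74 in WT8. MVD, mevalonate diphosphate decarboxylase, changed by -0.22 and 0.73 in 786O and WT8, IDI1, the isomerase that follows it, by -0.27 and 0.66, and SQLE, squalene epoxidase, by -0.19 and 0.27. The rise of PMVK in WT8 (0.23, adjusted p = 0.0103) was lost without WT8 shBMAL1 replicate 1 (0.14, adjusted p = 0.129), and its WT8 groups overlapped.

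In the steps from squalene epoxide to cholesterol, 5 of 7 genes fell in 786O and 4 of 7 rose in WT8, where 2 fell. Among all genes tested, 24.4% were called lower in 786O, and 32.9% were called higher and 36.9% lower in WT8. LSS, lanosterol synthase, which closes the sterol rings, had 146, 141 and 138 CPM in 786O shControl and 78.9, 75.2 and 77.97 CPM in 786O shBMAL1. In WT8 it had 105, 108 and 107 CPM with shControl and 120.2, 114 and 109.6 CPM with shBMAL1. The fall in 786O was 1.84-fold (log2 change -0.88, SE 0.05, adjusted p = 2.23e-17). The rise in WT8 was small (log2 change 0.11, SE 0.05, adjusted p = 0.03802) and was lost without WT8 shControl replicate 1 (0.10, adjusted p = 0.116) or WT8 shBMAL1 replicate 1 (0.08, adjusted p = 0.155).

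HSD17B7, a sterol ketone reductase, had 25.3, 27.1 and 26.7 CPM in 786O shControl, 21.1, 23.3 and 22.3 CPM in 786O shBMAL1, 12.6, 10.6 and 11.5 CPM in WT8 shControl and 26.1, 25.5 and 29.8 CPM in WT8 shBMAL1. WT8 shControl was lowest, and WT8 shBMAL1 overlapped 786O shControl. The change was -0.25 in 786O (SE 0.08, adjusted p = 0.0109) and 1.23 in WT8 (SE 0.08, adjusted p = 2.37e-15). EBP, the sterol isomerase, changed by -0.37 in 786O and 0.41 in WT8, and DHCR7, the reductase of the last step to cholesterol, by -0.34 and 0.63.

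TM7SF2, a sterol reductase of the endoplasmic reticulum, moved unlike most of the sterol genes. It had 5.46, 6.29 and 6.28 CPM in 786O shControl and 6.63, 5.04 and 5.03 CPM in 786O shBMAL1, which overlapped. It had 24.9, 21.3 and 24.4 CPM in WT8 shControl and 16.9, 15.6 and 15.05 CPM in WT8 shBMAL1, both well above 786O. It was 3.91-fold higher in WT8 shControl than in 786O shControl (log2 change 1.97, SE 0.11, adjusted p = 1.23e-18), fell with shBMAL1 in WT8 (log2 change -0.57, SE 0.09, adjusted p = 2.39e-06) and did not pass the test in 786O (log2 change -0.11, SE 0.12, adjusted p = 0.483). Its exons overlap those of VPS51 on the same strand, and the log2 change of VPS51 was -0.21 between the lines and 0.19 with shBMAL1 in WT8.

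CYP51A1, lanosterol demethylase, fell in 786O (log2 change -0.41, SE 0.06, adjusted p = 9.36e-07) and was lower in WT8 shControl than in 786O shControl (-1.08). Its fall in WT8 (-0.14, adjusted p = 0.0543) was lost without WT8 shControl replicate 3 (-0.12, adjusted p = 0.154) and without WT8 shBMAL1 replicate 1 (-0.12, adjusted p = 0.145) or 2 (-0.13, adjusted p = 0.128). NSDHL, a sterol dehydrogenase, did not pass the test with shBMAL1 in either line (-0.08, adjusted p = 0.189 in 786O and 0.05, adjusted p = 0.4204 in WT8). Its group means ran from 81.7 to 97.998 CPM.

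**Figure D5:**
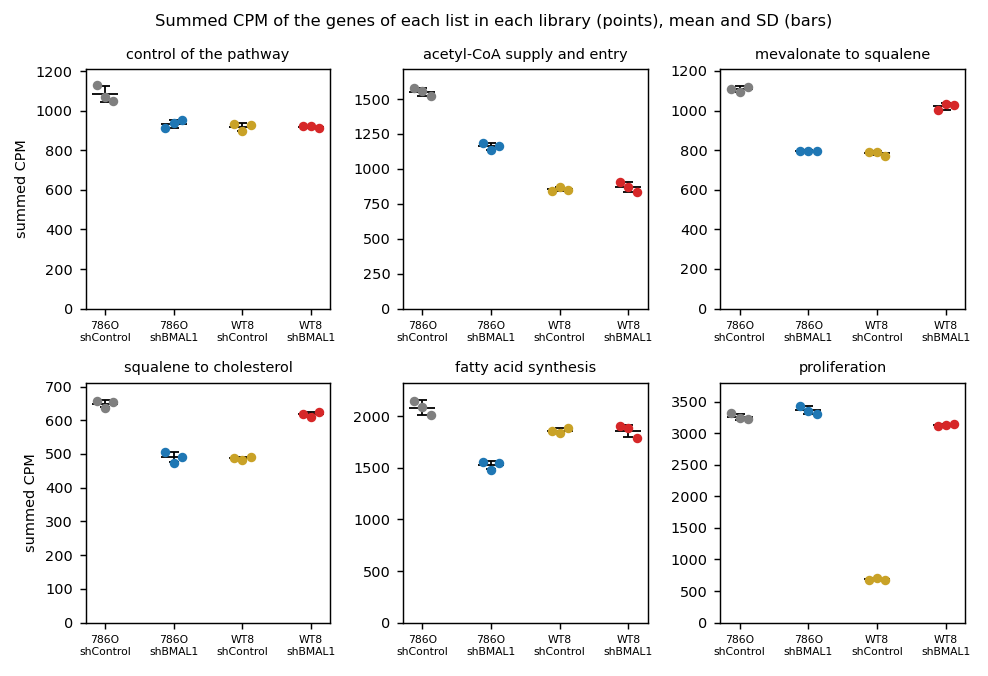
Summed CPM (y axis, from 0) of the genes of each role group and of 15 proliferation genes in each library of the 4 groups (x axis), with black bars for the mean and SD of 3 replicates. The 2 sterol synthesis groups are lowest in 786O shBMAL1 and WT8 shControl, the fatty acid group is lowest in 786O shBMAL1, and the proliferation genes are low in WT8 shControl alone.

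Fatty acids are built by ACACA (acetyl-CoA carboxylase) and FASN (fatty acid synthase) and then desaturated and lengthened. In 786O, 4 of the 7 genes of this group fell, 1 rose and 2 did not pass the test, and their summed level was 2086 ± 70.6 CPM with shControl and 1530.2 ± 40.6 CPM with shBMAL1. In WT8, 3 rose, 2 fell and 2 did not pass the test, and the sum was 1861 ± 23.04 CPM with shControl and 1861 ± 59.6 CPM with shBMAL1. Among all genes tested, 24.5% were called higher and 24.4% lower in 786O, and 32.9% higher and 36.9% lower in WT8. For WT8 the count of genes called is near the share over all genes, 69.8%. All 7 had a positive interaction that passed the test, from 0.19 to 0.60, where 27.4% of all genes tested were called positive. That of ACACA (0.19, adjusted p = 0.0538) was lost when any of 5 libraries was left out, with values from 0.15 to 0.17. It was also lost under DESeq2 (0.18, adjusted p = 0.1003) and at a threshold of 0.05.

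FASN had 708, 637 and 567 CPM in 786O shControl and 509, 479 and 487 CPM in 786O shBMAL1. It had 737, 731 and 747 CPM in WT8 shControl and 842, 818 and 731 CPM in WT8 shBMAL1, which overlapped. The libraries of 786O shControl were the most spread. It fell in 786O (log2 change -0.37, SE 0.06, adjusted p = 3.86e-05), and in WT8 it did not pass the test (log2 change 0.11, SE 0.06, adjusted p = 0.1204). Some alternatives called FASN higher in WT8. Among them were the 6 libraries compared (0.14, adjusted p = 0.0157) and the fit without WT8 shBMAL1 replicate 3 (0.17, adjusted p = 0.0106). ACACA did not pass the test with shBMAL1 in 786O (-0.10, adjusted p = 0.173) or in WT8 (0.09, adjusted p = 0.172), and it was lower in WT8 shControl than in 786O shControl (-0.53). Without 786O shControl replicate 3 it was called lower in 786O (-0.17, adjusted p = 0.0265). Some alternatives called it higher in WT8, such as the fit without WT8 shBMAL1 replicate 3 (0.15, adjusted p = 0.0272).

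The desaturases SCD, which makes monounsaturated fatty acids, and FADS2, which acts early in the making of polyunsaturated ones, fell in both lines. SCD had 371, 374 and 375 CPM in 786O shControl and 234, 231 and 254 CPM in 786O shBMAL1. It had 266, 270.0 and 273 CPM in WT8 shControl and 195, 211 and 214 CPM in WT8 shBMAL1, and shControl was above shBMAL1 in every library of each line. The fall was 1.56-fold in 786O (log2 change -0.64, SE 0.04, adjusted p = 2.53e-14) and 1.31-fold in WT8 (log2 change -0.39, SE 0.04, adjusted p = 1.73e-09).

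FADS2 had 559, 566 and 565 CPM in 786O shControl and 339, 321 and 315 CPM in 786O shBMAL1, against 507, 491 and 516 CPM and 445, 436 and 436 CPM in the WT8 groups. It fell 1.73-fold in 786O (log2 change -0.79, SE 0.04, adjusted p = 6.36e-18) and 1.15-fold in WT8 (log2 change -0.20, SE 0.04, adjusted p = 4.64e-05), a difference of 0.59 by the interaction (SE 0.06, adjusted p = 6.33e-11). FADS1, the desaturase that acts after FADS2, fell in 786O (-0.46, SE 0.04) and rose in WT8 (0.14, SE 0.04, adjusted p = 0.00628). On GRCh37 the annotated span of FADS1 (chr11:61567099-61596790, minus strand) lies within that of FADS2 (chr11:61560452-61634826, plus strand), and their annotated exons overlap. FADS2 also shares exon sequence with FEN1 on the same strand, a replication nuclease whose log2 change was 0.19 in 786O and 2.03 in WT8, opposite in direction to FADS2.

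ELOVL5, the elongase of polyunsaturated fatty acids, was the exception in 786O. It had 178, 177 and 181 CPM in 786O shControl, 195, 191 and 202 CPM in 786O shBMAL1, 107, 103 and 103 CPM in WT8 shControl and 148, 149 and 149.6 CPM in WT8 shBMAL1. No groups overlapped, and shBMAL1 was above shControl in each line. The rise was 1.099-fold in 786O (log2 change 0.14, SE 0.04, adjusted p = 0.00849) and 1.42-fold in WT8 (log2 change 0.51, SE 0.04, adjusted p = 7.86e-13). ELOVL6, the elongase of saturated fatty acids, did not pass the test in 786O (-0.04, adjusted p = 0.6995) and rose in WT8 (0.38, SE 0.08, adjusted p = 5.94e-05).

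The exons of 9 of the 33 genes (SREBF1, STARD4, ACAT2, MVK, IDI1, FDPS, CYP51A1, FADS1 and FADS2) overlap those of another gene of the table on the opposite strand in the GENCODE annotation of GRCh37, and 3 (TM7SF2, FADS1 and FADS2) overlap one on the same strand. Without a statement on strand, reads from the shared stretches cannot be assigned with certainty. RAI1, which overlaps SREBF1, changed by 0.24 in 786O and -0.27 in WT8, where SREBF1 fell in both. IDI2-AS1, an antisense RNA over IDI1, changed by -0.39 and 0.87, in the same directions as IDI1. CYP51A1-AS1, antisense to CYP51A1, did not pass the test in 786O (-0.67, adjusted p = 0.126) and rose by 1.68 in WT8.

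Other genes around these pathways were taken as further lists. The shares over all genes tested that belong beside their counts are 24.5% higher and 24.4% lower in 786O and 32.9% higher and 36.9% lower in WT8. Of 15 other sterol and isoprenoid genes, 9 fell and 3 rose in 786O, and 9 rose and 5 fell in WT8. TMEM97, the sigma-2 receptor, rose in both lines (0.39 in 786O and 1.59 in WT8) from a lower level in WT8 shControl (-1.99 against 786O shControl). NPC1, which exports cholesterol from lysosomes, had the largest fall in 786O (-0.62, SE 0.04, against -0.82 in WT8), and GGPS1, which makes geranylgeranyl diphosphate, had the largest fall in WT8 (-1.02, SE 0.07, against -0.21 in 786O). ACAT1, the mitochondrial thiolase, had the largest excess in WT8 shControl over 786O shControl (0.47).

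Of 11 other regulators of SREBP and HMG-CoA reductase, 5 rose and 4 fell in 786O, where 48.9% of all genes were called, and 6 rose and 4 fell in WT8, where 69.8% were. MBTPS1, the protease that makes the first cut in SREBP, had the largest fall in both lines (-0.62 in 786O, SE 0.05, and -0.68 in WT8, SE 0.05). SEC24D, a part of the coat of vesicles that leave the endoplasmic reticulum, rose most in WT8 (1.15, against 0.33 in 786O) from a level lower than in 786O (-1.33), and RNF139, a ubiquitin ligase of that membrane, had the largest excess in WT8 shControl (0.56).

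Of 6 genes of the LXR receptors and sterol efflux, 5 could be tested. In 786O 2 rose and 1 fell, and in WT8 1 rose and 3 fell, against 48.9% and 69.8% of all genes called, so with 5 genes the counts show nothing particular to this list. ABCA1, the exporter of cholesterol to lipoproteins, fell in 786O (log2 change -0.42, SE 0.06, adjusted p = 1.72e-06) and in WT8 (log2 change -0.93, SE 0.07, adjusted p = 3.27e-13), and was lower in WT8 shControl than in 786O shControl (-1.08). NR1H2, which encodes LXR beta, rose in WT8 (0.71, against 0.50 in 786O). MYLIP, a ubiquitin ligase induced by LXR, rose in 786O (0.73) and fell in WT8 (-0.58), from a level higher in WT8 shControl than in 786O shControl (2.74).

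Of 24 other fatty acid synthesis genes, 23 could be tested. In 786O 6 rose and 8 fell, and in WT8 7 rose and 9 fell, which for WT8 is near the 69.8% of all genes called. HSD17B12, the reductase of the elongation cycle, rose in 786O (0.92) and WT8 (1.56) and was lower in WT8 shControl than in 786O shControl (-2.34). IDH1, which makes NADPH in the cytosol, fell in 786O (-1.13) and WT8 (-1.55).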

How the data were processed

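RNA of the 12 libraries was isolated on spin columns and sequenced as read pairs at BGI. Per the methods of the study, reads were aligned to GRCh37 with SeqMan NGen and counts were exported from ArrayStar, whereas the submitters' processing notes name STAR, DESeq2 and hg38. Which route made the table, the annotation, and whether strand was used in counting are not given in the sources used here. The deposited values are estimated counts for each gene, not scaled between libraries. A value of 0.028 stood in for 0 (47.0% of values) and was set to 0, and the rest (5.67% not whole) were rounded, although the tests had been planned for plain counts. Lines with the same name were summed.

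Genes passing filterByExpr (16838 of 26925 with a count) were scaled by TMM (factors 0.948 to 1.04) and fitted over all 12 libraries with 1 mean per group by the robust quasi-likelihood test of edgeR 4.0.16 in R 4.3.3. The fit was tested on simulated data. Adjusted p-values (Benjamini-Hochberg over all genes tested) of single genes are from this test, genes under 0.1 were called, the false discovery rate of the study, and SE was obtained from the log2 change and its F statistic. The biological coefficient of variation was 5.70%. Replicate numbers did not pair the libraries. The alternatives were DESeq2 1.42.0, RLE size factors, library totals, no filter, the 6 libraries compared, a threshold of 0.05, a replicate block and each library left out. The 33 genes and the further lists, written from general knowledge, were chosen with earlier results of these data known. Values in every library are given for SREBF1, SREBF2, INSIG1, INSIG2 and, in each other role group, for the called genes with the largest rise and fall with shBMAL1. HMGCS1, STARD4 and FASN were added after their values were seen. Of the further lists, the called genes with the largest rise and fall and a mean of at least 50 counts are named, except 2 that are not reported here.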

Additional observations from a re-analysis of the deposited data

Results flagged for a closer look

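For 28 of the 33 genes the change with shBMAL1 differed between the lines by the interaction test of edgeR (adjusted p from 9.89e-26 to 0.0590), and this is why they are listed here. Over all genes tested, 56.0% passed the same test. The values subtract the change in 786O from the change in WT8, both with shBMAL1 and on the log2 scale.

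In the control of the pathway the difference was 1.58 for STARD4, 1.29 for INSIG1, 0.15 for SREBF2 and -0.27 for SREBF1. In acetyl-CoA supply and entry it was 2.24 for ACAT2, 1.63 for HMGCS1, 0.27 for ME1, -0.23 for ACSS2 and -0.37 for AACS. From mevalonate to squalene it was 1.58 for MVK, 1.20 for FDPS, 1.17 for FDFT1, 0.95 for MVD, 0.93 for IDI1 and 0.46 for SQLE. From squalene to cholesterol it was 1.48 for HSD17B7, 0.99 for LSS, 0.97 for DHCR7, 0.78 for EBP, 0.27 for CYP51A1 and -0.46 for TM7SF2. In the fatty acid group it was 0.60 for FADS1, 0.59 for FADS2, 0.48 for FASN, 0.42 for ELOVL6, 0.37 for ELOVL5, 0.25 for SCD and 0.19 for ACACA.

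The 15 proliferation genes were also all called in the interaction, with a median of 2.15, and the VHL transcript had a difference of -0.65 (adjusted p = 3.41e-08). The part of either in the differences above was not tested. Groups of 3 libraries are too small for the check on single outlying samples.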

How the results depend on the processing

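The counts of genes called stayed close to those reported under all alternatives run. They ran from 24 to 27 of 33 in 786O (26 reported), from 27 to 31 in WT8 (30), were 31 between the lines throughout, and ran from 26 to 29 for the interaction (28). Over the single genes, 2410 of the values under the alternatives kept their side of the threshold. Of the rest, 47 lost the call, 16 gained one and 2 were called with a changed sign, and these fell on 18 of 132 results. Signs were not compared where neither fit called the gene. The 2 calls with a changed sign were both between the lines under scaling by library totals. They were those of SREBF2 (0.10, adjusted p = 0.0212) and SCAP (0.10, adjusted p = 0.0536). Neither was called in the reported fit, and both were called higher in WT8 shControl under that scaling. That scaling moved the median of all genes between the lines to 0.12, the median of the 33 genes to -0.35, and ended the calls of INSIG2 (-0.10) and FADS2 (-0.04).

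Replicate numbers did not pair the libraries (correlation of deviations from -0.0457 to 0.0481 between same-numbered libraries). With the replicate number as a block, 26, 31, 31 and 28 genes were called in 786O, in WT8, between the lines and in the interaction, and the added call was FASN in WT8 (0.11). At 33182005 to 36477484 counts per library, the gene with the fewest counts of the 33, TM7SF2 in 786O, had 175 to 231 counts per library, and a standard error of 0.12.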
